A study of Rattus norvegicus with 8 samples.

Results

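The smooth muscle contractile genes of vessel walls and myofibroblasts were followed in rat Achilles tendon, together with 3 surface and signalling genes of the cells that wrap small vessels. The 10 genes were taken by symbol from a list whose rule names no measured value but which was drawn up with earlier results of these data known, and each had exactly 1 row among the 15590 genes of the deposited table. They were Acta2, Actg2, Tagln, Cnn1, Lmod1, Myh11, Myl9, Notch3, Pdgfrb and Rgs5. All animals were male SD (Sprague-Dawley) rats of genotype WT, 8 to 10 weeks old according to the methods of the study. One group, 0 h p.r. (post-running), ran uphill for 1 h on a treadmill and was killed at once. The other, NC, was a naïve control that did not run. RNA came from the right Achilles tendon, with 4 libraries in each group. The methods state that resting rats were killed together with a 12 h p.r. group, so the groups may also differ in the hour of collection, whose part was not tested. Neither the labels nor the methods say in so many words that each library came from a different rat, so the p-values measure the spread between these libraries.

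Mural cells are the smooth muscle cells and pericytes that surround blood vessels. Smooth muscle contracts when myosin motors pull on thin filaments of smooth muscle actin, after calcium has led to phosphorylation of the myosin regulatory light chain. Pericytes carry the receptors for platelet-derived growth factor B and for Notch ligands presented by endothelium, and fibroblasts that are activated by tension or TGF-beta, called myofibroblasts, switch on part of the same contractile programme, above all α-smooth muscle actin. The contractile genes share a regulatory element, the CArG box, which is bound by serum response factor together with its coactivator myocardin or the myocardin-related factors.

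Values are FPKM, fragments scaled for gene length and for library depth, as deposited. Between 10660131 and 17464752 whole reads per library were recovered from the steps between the FPKM values, and each member had at least 266 reads in every library. NC replicate 2 was the shallowest library, and its 13 mitochondrial protein-coding genes took 31.1% of its FPKM against 16.3% to 21.9% elsewhere. The tendon markers Tnmd, Scx, Mkx, Fmod, Thbs4, Comp, Kera and Chad were detected in all 8 libraries. In bulk RNA, fewer cells of a type and less RNA per cell cannot be told apart.

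The members spanned a wide range of levels at rest. Acta2 was highest, at 594 ± 93.4 FPKM in NC (SD, n = 4), followed by Tagln at 556 ± 222, Rgs5 at 432 ± 41.5 and Myl9 at 279 ± 116. Neighbours among these 4 genes overlapped in NC, while Acta2 lay above Rgs5 and Myl9 in every library of the group. Myh11 (99.1 ± 18.9 FPKM) lay below all of them and above Notch3 (50.7 ± 16.4), with ranges that were apart on both sides. Pdgfrb (34.9 ± 5.65), Cnn1 (34.5 ± 23.4), Actg2 (31.1 ± 20.5) and Lmod1 (22.3 ± 4.02) followed, and no neighbours in this lower run, from Notch3 down, were apart. After running, Cnn1 lay above Pdgfrb in 4 of 4 libraries of 0 h p.r., as it had in 2 of 4 of NC, and Tagln was apart from Rgs5 and Notch3 from Pdgfrb.

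**Figure D1:**
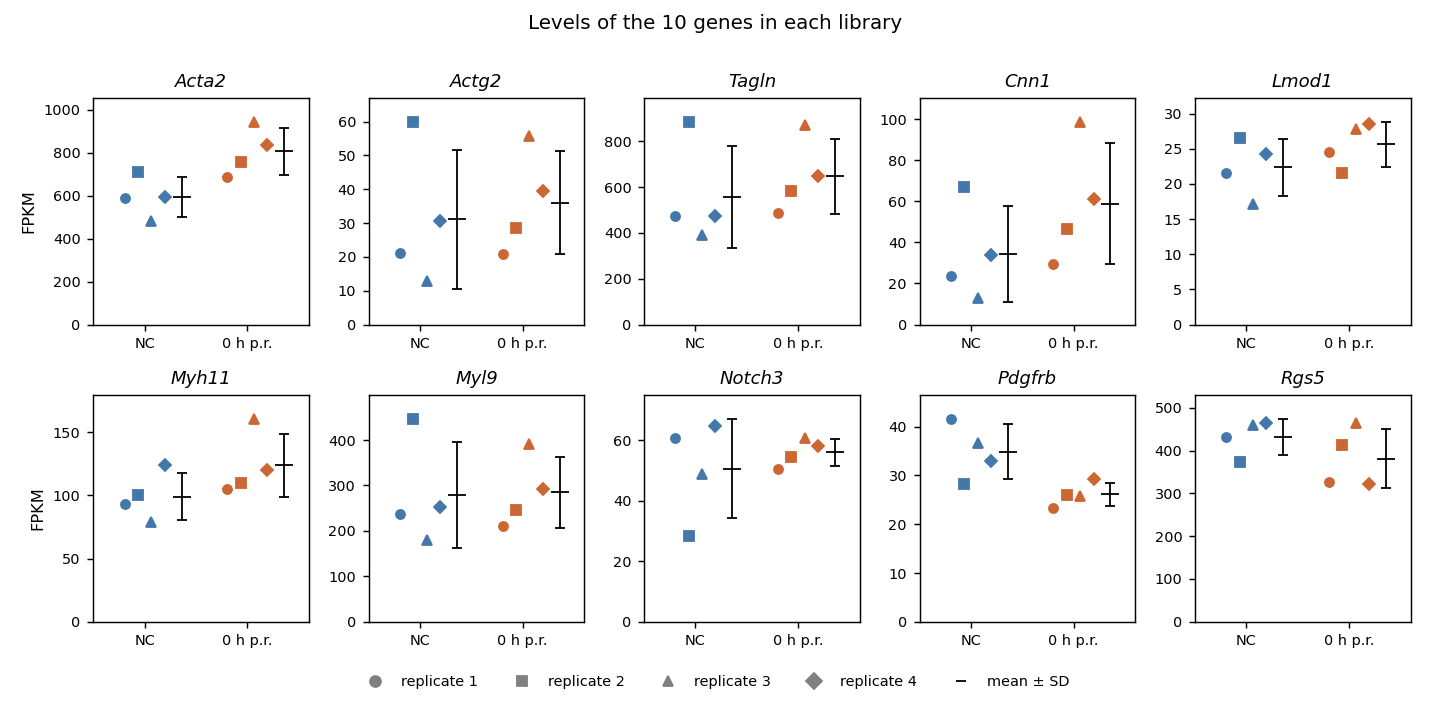
Level of each of the 10 genes in FPKM (vertical axes from 0, a scale for each gene) in the 4 NC and 4 0 h p.r. libraries. Each point is a library, its shape gives the replicate number, and the black bars give the mean ± SD of the group. The groups overlap for all 10 genes, and NC replicate 2 and 0 h p.r. replicate 3 are the highest libraries of their groups for Acta2, Actg2, Tagln, Cnn1 and Myl9.

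Thin filament genes were examined first. Acta2 (ENSRNOG00000058039) encodes α-smooth muscle actin, the protein that the study stained in tendon sections as a sign of activated fibroblasts. Its FPKM was 588, 711, 483 and 594 in the NC libraries and 688, 755, 943 and 838 in 0 h p.r. Replicates 2, 3 and 4 of 0 h p.r. lay above every NC library, while replicate 1 lay below NC replicate 2. The mean was 806 ± 110.0 FPKM after running, a log2 change of 0.44 with a standard error of 0.19. The 95% interval ran from 0.02 to 0.87, a fold of 1.01 to 1.83, and the adjusted p was 0.207 (limma, all tested genes).

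The 300 bases around the RefSeq start of Acta2 are printed because the abundance of its transcript is the main question here and because its known control elements lie in this window. The window covers 250 bases before and 50 after the start. It lies at chr1:241172454-241172753 on the minus strand of GRCr8, a later build than the Rnor_6.0 to which the authors aligned. The CArG box is CC, then 6 bases that are A or T, then GG, which reads the same on both strands. Capitals mark matches with at most 1 G or C among those 6 bases. The start of Cnn1, the member that followed Acta2 most closely over the 8 libraries as deposited, is printed beside it. The Cnn1 window lies at chr8:28908187-28908486 on the plus strand.
Acta2: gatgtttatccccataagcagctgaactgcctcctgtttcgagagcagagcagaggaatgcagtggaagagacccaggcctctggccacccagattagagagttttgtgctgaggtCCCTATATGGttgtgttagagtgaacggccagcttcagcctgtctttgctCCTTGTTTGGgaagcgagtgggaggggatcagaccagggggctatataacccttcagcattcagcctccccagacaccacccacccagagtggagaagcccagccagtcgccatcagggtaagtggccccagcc
Cnn1: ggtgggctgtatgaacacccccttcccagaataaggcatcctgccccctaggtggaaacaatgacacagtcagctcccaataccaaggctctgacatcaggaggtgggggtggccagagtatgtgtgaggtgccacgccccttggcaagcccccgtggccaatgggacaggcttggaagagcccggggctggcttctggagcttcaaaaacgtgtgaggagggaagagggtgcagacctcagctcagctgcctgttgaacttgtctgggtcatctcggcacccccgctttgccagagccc
Acta2 held 2 such matches, CCCTATATGG from 134 to 125 bases before the start and CCTTGTTTGG from 84 to 75 bases before it, which did not overlap each other. Neither had a core of A and T alone. The Cnn1 window held none, nor did those of Actg2, Notch3 and Rgs5, the other members with an entry in the table. Of all 33469 promoter windows of this length, 9.42% held a match with at most 1 G or C in the core and 1.64% a match to the strict box. A match is a description of the letters only.

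Actg2 (ENSRNOG00000029401), the γ-actin of enteric smooth muscle, was far less abundant than Acta2 in FPKM. Its levels were 21.2, 59.9, 12.8 and 30.7 in NC and 20.7, 28.5, 55.7 and 39.3 in 0 h p.r. The groups overlapped fully, and NC replicate 2 was the highest library of all. The log2 change was 0.34 (95% interval -0.69 to 1.36, limma adjusted p 0.729), and it was -0.01 without NC replicate 3 and 0.72 without NC replicate 2.

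Tagln (ENSRNOG00000017628) encodes transgelin or SM22α, an actin-binding protein of smooth muscle. Its FPKM was 474, 884, 392 and 473 in NC and 489, 582, 871 and 646 in 0 h p.r. The highest value was again that of NC replicate 2, and 3 of the 4 NC libraries lay below every 0 h p.r. library. The log2 change was 0.26 ± 0.29 (SE), with a 95% interval of -0.39 to 0.91 and a limma adjusted p of 0.657. Without NC replicate 2 it was 0.51 and without 0 h p.r. replicate 3 it was 0.11.

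Cnn1 (ENSRNOG00000027736), which encodes calponin 1, a thin filament protein that restrains myosin, varied most. Its FPKM was 23.9, 67.2, 13.0 and 33.9 in NC and 29.3, 46.3, 98.6 and 61.0 in 0 h p.r. The libraries spanned a 7.56-fold range, 5.15-fold within NC alone. It also had the highest log2 change among the members, 0.87, but the interval from -0.26 to 1.99 included 0 and the limma adjusted p was 0.351. Leaving out NC replicate 3 lowered the change to 0.49, and leaving out NC replicate 2 raised it to 1.27.

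Lmod1 (ENSRNOG00000051548), whose product leiomodin 1 nucleates actin filaments in smooth muscle, varied little. Its FPKM was 21.5, 26.5, 17.1 and 24.2 in NC and 24.5, 21.6, 27.8 and 28.5 in 0 h p.r. Its 2 highest libraries were 0 h p.r. replicates 3 and 4. The log2 change was 0.20, with a 95% interval of -0.15 to 0.56 and a limma adjusted p of 0.499.

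The motor genes were next. Myh11 (ENSRNOG00000057880) encodes the smooth muscle myosin heavy chain, the marker most restricted to mature smooth muscle. Its FPKM was 93.4, 100.5, 78.7 and 124 in NC and 105, 109.6, 160.4 and 120.1 in 0 h p.r. Only replicate 3 of 0 h p.r. exceeded NC replicate 4, and the log2 change of 0.32 had a 95% interval of -0.09 to 0.73 (limma adjusted p 0.350). Myl9 (ENSRNOG00000020246), a regulatory light chain used by smooth muscle and also by non-muscle cells, had levels of 237, 446, 179 and 253 FPKM at rest and 211, 246, 391 and 293 after running Its means of 279 ± 116 and 285 ± 78.3 FPKM were nearly equal, with a log2 change of 0.08 (95% interval -0.59 to 0.74, limma adjusted p 0.919). That sign turned to -0.11 without NC replicate 3 and to -0.09 without 0 h p.r. replicate 3.

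The receptors and Rgs5 completed the list. Notch3 (ENSRNOG00000004346), the Notch receptor of vascular smooth muscle and pericytes, had levels of 60.8, 28.3, 48.8 and 64.8 FPKM at rest and 50.5, 54.6, 60.8 and 58.2 after running NC replicate 2, a library high in Actg2, Tagln, Cnn1 and Myl9, was the lowest for Notch3. The log2 change of 0.21 (limma adjusted p 0.675) rested on that library and was -0.05 without it.

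Pdgfrb (ENSRNOG00000018461) encodes the receptor through which platelet-derived growth factor B recruits pericytes, and fibroblasts express it as well. Its FPKM was 41.6, 28.2, 36.6 and 33.0 in NC and 23.3, 26.0, 25.9 and 29.3 in 0 h p.r. Replicates 1, 2 and 3 of 0 h p.r. lay below every NC library, and replicate 4 lay between NC replicate 2 and the others. The log2 change was -0.40 with a standard error of 0.14 (95% interval -0.71 to -0.09), and the limma adjusted p of 0.127 did not pass.

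Rgs5 (ENSRNOG00000002730), a regulator that shortens G protein signals and marks pericytes, had levels of 431, 373, 459 and 463 FPKM at rest and 326, 413, 464 and 322 after running Replicates 1 and 4 of 0 h p.r. were below every NC library and replicate 3 was level with NC replicate 4, the highest at rest. The log2 change was -0.19, with a 95% interval of -0.58 to 0.20 and a limma adjusted p of 0.572.

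The main comparison asked whether these genes differ between tendons taken right after running and at rest. Among the 13863 genes tested, none of the 10 members passed an adjusted p under 0.05 together with a fold of at least 2, where 2.70% of tested genes did. None passed the adjusted p alone either, which 5.72% of tested genes did. At an unadjusted p under 0.05, Acta2 and Pdgfrb were the 2 of 10 to pass, against 22.6% of all tested genes. When the recovered reads were fitted with voom, the counts were again 0, 0 and 2. No member had groups that did not overlap, where 15.6% of tested genes did. The fitted change was positive for 8 members and negative for Pdgfrb and Rgs5, with a median of 0.23 against -0.00 over all tested genes. The 95% intervals of Acta2, Tagln, Lmod1, Myh11, Myl9, Notch3, Pdgfrb and Rgs5 lay within a 2-fold change in either direction, while those of Actg2 (0.62-fold to 2.57-fold) and Cnn1 (0.84-fold to 3.98-fold) did not.

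**Figure D2:**
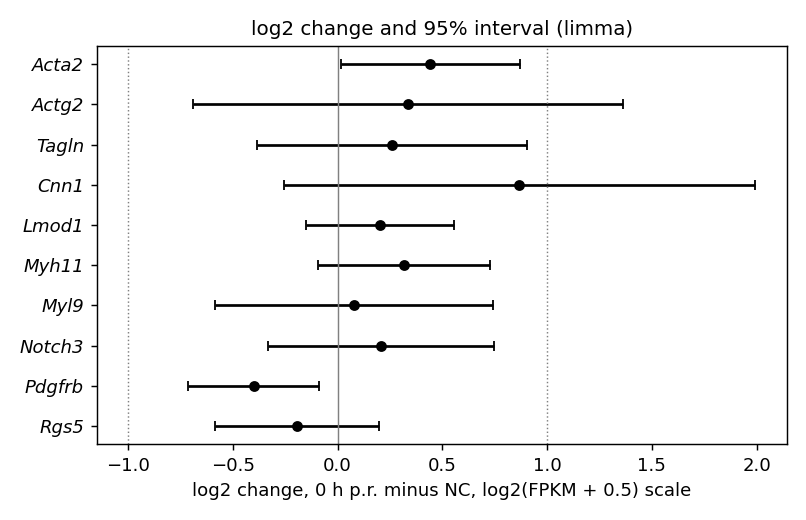
log2 change of each gene from NC to 0 h p.r. on the log2(FPKM + 0.5) scale (horizontal axis), with bars for the 95% interval of the limma fit of 4 against 4 libraries. The solid line marks no change and the dotted lines a fold of 2. The intervals of Acta2 (0.02 to 0.87) and Pdgfrb (-0.71 to -0.09) leave out 0 before adjustment, and neither gene passed after it.

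The result depended on how libraries were weighted. With array weights, which count libraries that stand apart for less, 2 members passed an adjusted p under 0.05. These were Acta2 (log2 change 0.53, limma adjusted p 0.0449) and Pdgfrb (-0.49, limma adjusted p 0.0192), neither with a fold of 2. Array weights also raised the calls over all tested genes to 2069 from 793. Across the 8 leave-one-out fits the limma adjusted p of Acta2 ran from 0.0774 to 0.431. That of Pdgfrb ran from 0.0530 to 0.300, and for both genes the lowest value came when NC replicate 2, the library rich in mitochondrial transcripts, was dropped.

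Although the groups overlapped, the contractile genes varied together from library to library. Their 21 pairs had a Pearson's r of 0.58 to 0.97 with a median of 0.82 across the 8 libraries, while the 21 pairs of a contractile gene with Notch3, Pdgfrb or Rgs5 had r from -0.70 to 0.38 with a median of -0.34. The points share a library and its scaling, so these values are a description. NC replicate 3 was the lowest of all 8 libraries for each of the 7 contractile genes. NC replicate 2 was the highest for Actg2, Tagln and Myl9, 0 h p.r. replicate 3 for Acta2, Cnn1 and Myh11, and 0 h p.r. replicate 4 for Lmod1.

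**Figure D3:**
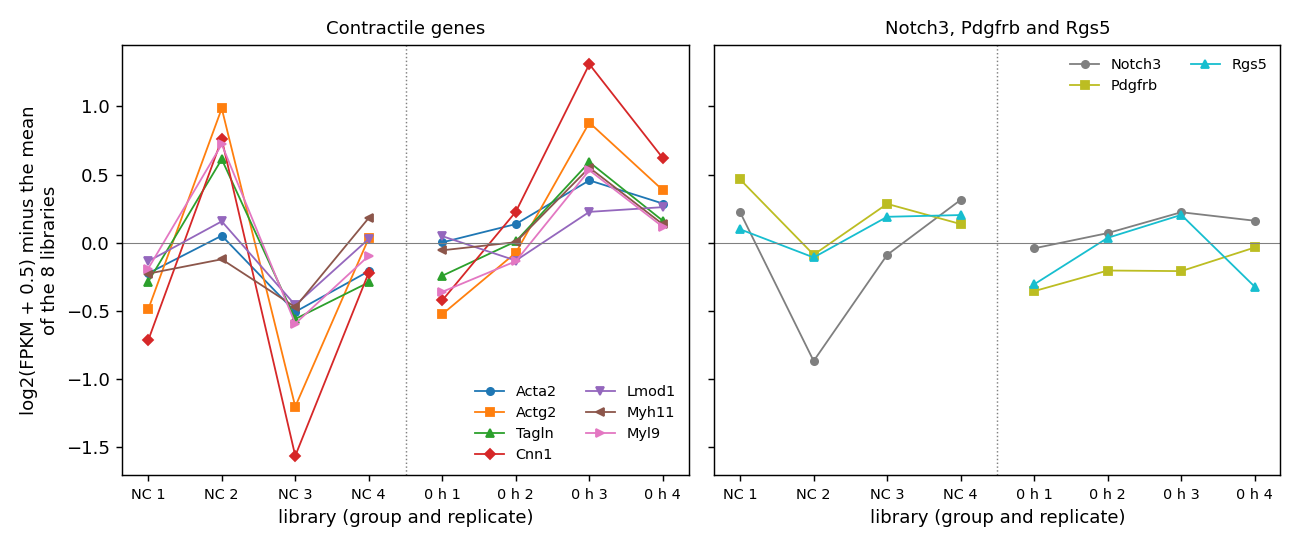
log2(FPKM + 0.5) of each gene minus its mean over the 8 libraries (vertical axis), by library (horizontal axis, NC replicates left of the dotted line and 0 h p.r. replicates right of it). Lines only join the points of a gene, since replicates have no order. The 7 contractile genes are all lowest in NC replicate 3, and Notch3 is lowest in NC replicate 2.

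The relation of each other member to Acta2 was tested with an exact permutation test over all pairings of the 8 libraries, two-sided, with adjustment over the 9 relations. The test treats the 8 libraries as exchangeable and takes no account of the group or of the scaling that the genes of a library share, so its p-values may be too small. By Pearson's r, 5 of the 9 had an adjusted p under 0.05 in the values as deposited, and none had under quantile normalization. The 5 were Cnn1 (r = 0.93, exact p = 0.00129, adjusted p 0.0116), Lmod1 (r = 0.83), Myh11 (r = 0.82), Tagln (r = 0.82) and Actg2 (r = 0.79), the last 4 with adjusted p of 0.0305, 0.0305, 0.0305 and 0.0371. Myl9 (r = 0.69, exact p = 0.0580, adjusted p 0.0746) and Pdgfrb (r = -0.70, exact p = 0.0553, adjusted p 0.0746) were above it. Notch3 (r = 0.05, exact p = 0.899) and Rgs5 (r = -0.34, exact p = 0.404) had adjusted p of 0.899 and 0.454. By Spearman's rho, Cnn1 (rho = 0.90, exact p = 0.00456, adjusted p 0.0411), Tagln and Lmod1 (both rho = 0.83, exact p = 0.0154, adjusted p 0.0461) were under it, while Myh11 (0.74), Actg2 and Myl9 (both 0.71) had adjusted p of 0.0864 by the exact test. For Pdgfrb, Notch3 and Rgs5 rho was -0.67, 0.19 and -0.17, with exact p of 0.0831, 0.665 and 0.703 and adjusted p of 0.107, 0.703 and 0.703.

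The correlations were computed again without NC replicate 3 and 0 h p.r. replicate 3, the 2 libraries farthest from the median of Acta2, which also narrows the range of Acta2. Then r was 0.77 for Cnn1, 0.58 for Tagln, 0.57 for Lmod1, 0.44 for Actg2, 0.30 for Myh11 and 0.30 for Myl9. It was -0.62 for Pdgfrb, -0.72 for Rgs5 and -0.24 for Notch3. With the mean of each group subtracted, r with Acta2 was 0.98 for Cnn1, 0.97 for Actg2 and Myl9, 0.94 for Tagln, 0.85 for Lmod1 and 0.73 for Myh11. In that form r was -0.25 for Pdgfrb, -0.29 for Notch3 and 0.03 for Rgs5, so that the signs of the last 2 turned. Under quantile normalization the 21 contractile pairs had r of 0.39 to 0.95 with a median of 0.72, against 0.82 as deposited. The log2 level of Acta2 in NC replicate 2 moved from 9.48 to 9.03 there, and the 15 pairs without Acta2 had a median r of 0.84 (0.86 as deposited). Under the same normalization r with Acta2 was 0.82 for Myh11, 0.72 for Tagln, 0.56 for Cnn1, 0.53 for Lmod1, 0.42 for Myl9 and 0.39 for Actg2. It was 0.64 for Notch3, -0.11 for Pdgfrb and 0.14 for Rgs5. By r with Acta2, Notch3 then lay among the contractile genes, while Pdgfrb and Rgs5 still lay below all of them. In r with Acta2, the contrast with Notch3 thus depended on the scaling, and that with Pdgfrb and Rgs5 was narrower. Under that scaling Notch3 was still lowest in NC replicate 2, at a log2 level of 4.80. Its r with the contractile genes other than Acta2 was not computed there, so this holds for Acta2 only.

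Ratios within a library were chosen after the values were seen and are given without a test. The ratio of Acta2 to Pdgfrb was 14.1, 25.2, 13.2 and 18.0 in NC and 29.5, 29.1, 36.4 and 28.6 in 0 h p.r. All 4 libraries after running lay above all 4 at rest. The ratio of Acta2 to Rgs5 was 1.36, 1.91, 1.05 and 1.28 in NC and 2.11, 1.83, 2.03 and 2.60 in 0 h p.r., with replicate 2 of 0 h p.r. below NC replicate 2. The ratio of Tagln to Notch3 was 7.80, 31.3, 8.03 and 7.30 in NC and 9.67, 10.7, 14.3 and 11.1 in 0 h p.r. Its mean was lower after running (13.6 and 11.4), and NC replicate 2 alone lay above the libraries of 0 h p.r.

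The wider pathway was read from lists of genes that were not members. Of 116 tested genes on these lists, 14 passed an adjusted p under 0.05, which is 12.1% against 5.72% of all tested genes. Among the 15 tested regulators of the contractile genes, 3 rose and none fell, with a median log2 change of 0.19. Myocd, which encodes myocardin, rose from 1.52 ± 0.364 FPKM, at most 2.06 in a library, to 3.90, 4.70, 4.89 and 3.40 after running, a log2 change of 1.23 (limma adjusted p 0.00685). The groups were apart, and the call held in all 8 leave-one-out fits. Srf, the serum response factor gene, rose from 17.0 ± 2.70 to 32.3 ± 4.96 FPKM (log2 change 0.90, limma adjusted p 0.0142), but failed when NC replicate 1 was dropped, and when replicate 2 of 0 h p.r. was (limma adjusted p up to 0.0572). Klf4, a factor known to oppose the contractile programme, rose as well, from 131 ± 35.0 to 352 ± 129 FPKM (log2 change 1.38, limma adjusted p 0.0368), but its call was lost in 5 of the 8 fits (limma adjusted p up to 0.114 without 0 h p.r. replicate 2).

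**Figure D4:**
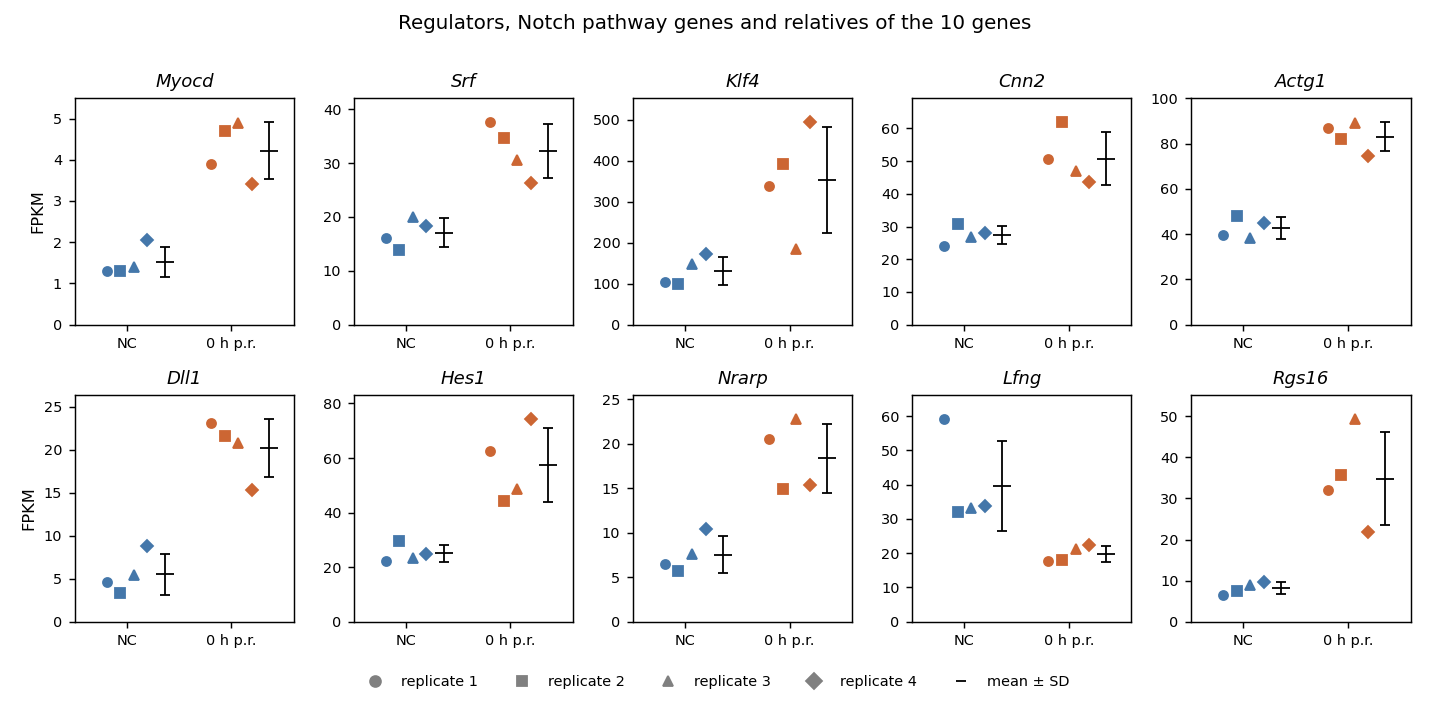
FPKM (vertical axes from 0, a scale for each gene) of 10 genes from the lists beside the members, in the 4 NC and 4 0 h p.r. libraries. Points are libraries, with a shape for each replicate number, and black bars give the mean ± SD. For each of these 10 genes the groups are apart, with Lfng lower and the other 9 higher in 0 h p.r. All 10 were picked from genes already called at an adjusted p under 0.05 (limma). Groups were apart for 15.6% of all tested genes.

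Other contractile genes and actins moved unevenly. The list of other smooth muscle genes had 19 tested genes and a median log2 change of 0.22. Of these, 2 rose and none fell, where 5.72% of all tested genes were called. The 2 were Cnn2 and Susd5, of which the first is best known from non-muscle cells. Cnn2, a calponin, rose from 27.4 ± 2.77 to 50.8 ± 8.02 FPKM, with all 4 libraries above those at rest (log2 change 0.87, limma adjusted p 0.00938), the same size of change as that of Cnn1 with a far smaller spread. Susd5 rose by 1.38 on the log2 scale (limma adjusted p 0.0386), but leave-one-out fits lost that call 6 times of 8, with a limma adjusted p of up to 0.105 when replicate 2 of 0 h p.r. was dropped. The cytoplasmic actin gene Actg1 rose from 42.7 ± 4.69 to 83.2 ± 6.43 FPKM (log2 change 0.96, limma adjusted p 0.00372). Actb, the other cytoplasmic actin gene, was at 1031 ± 54.3 FPKM at rest and 1201 ± 121 after running (log2 change 0.22, limma adjusted p 0.540), and its groups were apart too.

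The striated muscle actins varied widely between libraries. Acta1, of skeletal muscle, was at 2274, 2599, 2817 and 2092 FPKM at rest and at 12258, 1947, 5728 and 382 in 0 h p.r. Its coding sequence is close to that of Acta2, and whether the counting shared reads between them was not tested. Actc1, the cardiac actin gene, had levels of 20.3, 1.08, 34.5 and 6.59 FPKM at rest and 8.74, 3.74, 0.943 and 2.19 after running (log2 change -1.44, limma adjusted p 0.411). Of 12 tested genes on a list of contractile genes found in skeletal muscle, some of them also in smooth muscle, none passed. The largest changes were those of genes known from striated muscle, Csrp3 (log2 change -2.61, limma adjusted p 0.104) and Smpx (-1.93, limma adjusted p 0.114). Both passed once 0 h p.r. replicate 1, the library richest in muscle transcripts, was dropped (limma adjusted p 0.0322 and 0.00589).

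Among 13 tested Notch ligands, receptors and targets, 3 rose and 1 fell, where 5.72% of all tested genes were called. Notch3 itself did not pass, and the median log2 change of the list was 0.11. Dll1, which encodes a Notch ligand, was at 4.57, 3.32, 5.37 and 8.85 FPKM at rest and 23.0, 21.5, 20.8 and 15.4 after running (log2 change 1.84, limma adjusted p 0.00649). The lowest library after running lay above the highest at rest. The Notch target genes Hes1 (25.0 ± 3.15 to 57.5 ± 13.7 FPKM, log2 change 1.16, limma adjusted p 0.00830) and Nrarp (7.55 ± 2.11 to 18.4 ± 3.87 FPKM, log2 change 1.24, limma adjusted p 0.0132) rose too. These 3 calls held in all 8 leave-one-out fits. Lfng, whose product adds sugars to Notch receptors, fell from 39.5 ± 13.1 to 19.8 ± 2.30 FPKM (log2 change -0.93, limma adjusted p 0.0329), though 5 of the 8 leave-one-out fits lost the call (up to 0.106, with replicate 2 of 0 h p.r. dropped).

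Among 23 other pericyte and mural markers tested, 1 fell and none rose, where 5.72% of all tested genes were called. The fitted change was positive for 8 and negative for 15, where 49.9% of all tested genes had a positive one, and the median was -0.19. Kcnj8, the pore subunit of a potassium channel of pericytes, fell from 9.06, 16.1, 11.2 and 7.58 FPKM to 5.60, 5.37, 5.93 and 5.67 (log2 change -0.85, limma adjusted p 0.0476), but the call was lost in 6 of the 8 fits (up to 0.132 without 0 h p.r. replicate 2). Higd1b, another pericyte marker, had a log2 change of -0.68 (limma adjusted p 0.465). None of the 6 genes for the ligands and other receptors of platelet-derived growth factor passed, and the largest changes were those of Pdgfd (-0.41, limma adjusted p 0.150) and Pdgfa (0.19, limma adjusted p 0.376). Of 6 tested relatives of Rgs5, Rgs16 rose from 6.51, 7.59, 8.83 and 9.74 FPKM to 32.2, 35.8, 49.3 and 21.8 (log2 change 1.98, limma adjusted p 0.00309), and passed in all 8 leave-one-out fits. Rgs1 had a log2 change of 1.31 without passing (limma adjusted p 0.0803).

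Matrix and TGF-beta genes of activated fibroblasts gave no common direction. Of 18 tested, 1 rose and 1 fell, where 5.72% of all tested genes were called. The median log2 change of the 18 was 0.07. Postn, the gene of the myofibroblast matrix protein periostin, fell from 77.7 ± 16.1 to 32.0 ± 9.49 FPKM (log2 change -1.28, limma adjusted p 0.0162), and its groups were apart. The call failed in 3 of the 8 leave-one-out fits, when NC replicate 1, NC replicate 3 and replicate 3 of 0 h p.r. were dropped in turn (up to 0.0567).

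Markers of other cells were set beside these values. The summed FPKM of 11 endothelial markers was 671 to 793 in NC and 648 to 877 in 0 h p.r., with 1 of 11 called, and it was highest in 0 h p.r. replicate 3, where Acta2, Cnn1 and Myh11 were also highest. The 12 skeletal muscle markers summed to 5296 to 9926 in NC and 1364 to 44995 in 0 h p.r., lowest in replicate 4 and highest in replicate 1. The 9 adipocyte markers were all lower after running, and 6 of them were called, against 5.72% of all tested genes. Their sums were 3065 to 6135 in NC and 1022 to 2234 in 0 h p.r. For 8 tenocyte, 8 macrophage and 8 Schwann cell markers none was called, with sums of 3082 to 4611, 229 to 416 and 330 to 495 in NC and 4335 to 8497, 227 to 429 and 211 to 343 in 0 h p.r. None of the markers was at 0 in any library, and the part of these tissues in the values of the members was not tested.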

How the data were processed

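Polyadenylated RNA of 8 Achilles tendon libraries was sequenced. According to the methods of the study and the submitters' processing notes, the authors aligned stranded reads to Rnor_6.0 with HISAT2 2.1.0, counted them with featureCounts 1.6.3 and normalized them with DESeq2 1.30.1. The deposited table holds FPKM values, already scaled between libraries by the authors. Its fold changes and p-values are the authors' own comparison and were not used.

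Whole reads were recovered from the steps between a gene's FPKM values for 15589 of 15590 genes (99.99%, each value within 0.02 reads of a whole number) and gave the depth, 10660131 to 17464752 reads per library. Counting error is small beside the spread between libraries at the 266 to 21052 reads of a member.

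The 13863 genes that reached 0.5 FPKM in 4 or more libraries were compared as log2(FPKM + 0.5), a scale that makes changes of low genes look smaller, with limma 3.58.1 in R 4.3.3 (trend, two-sided, Benjamini-Hochberg over all tested genes). Correlations used exact permutation in Python 3.11.15. The fit was tested on simulated data, where its share of false calls was above the nominal rate. The members, the lists and the naming rule were chosen with earlier results of these data known. Named were all members, the called genes and the 2 largest changes of each list, and the 8 genes closest in pattern to the contractile members. Actb and Acta1 were added after their values were seen. The values of 1 called gene of the matrix list are not reported here. Prkg1, Mkl2, Rgs8, Rgs13, Rgs21, Pecam1, Myh2, Myh4 and Pnpla2 were not analysed here. Promoter windows came from RefSeq (GRCr8), matched by symbol for 5 of 10 members.

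Alternatives were pseudocounts of 0.1 and 1, dropping the low-value filter or raising it to a mean of 2 FPKM, scaling by quantiles or by median ratios, a replicate block, array weights and leave-one-out fits. A voom fit to recovered reads was chosen later, with the data in view. The lists and the correlations were also put through alternatives chosen after the data were seen.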

Additional observations from a re-analysis of the deposited data

How the results depend on the processing

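No member passed both thresholds under any of the 17 alternatives. Of 170 refitted changes of the members, 164 kept their direction and their side of the adjusted p threshold, 2 passed it with array weights (those of Acta2 and Pdgfrb, so that the count of members rose from 0 to 2), and 4 turned their sign while far from the threshold. Over the leave-one-out fits the log2 change of Actg2 ran from -0.0093 to 0.72 (negative without NC replicate 3), that of Myl9 from -0.11 to 0.33 (also -0.087 with 0 h p.r. replicate 3 dropped) and that of Notch3 from -0.046 to 0.35 (negative without NC replicate 2). The change of Acta1, no member, ran from -0.58 to 1.08 and was -0.22 once 0 h p.r. replicate 3 was dropped. The count of genes called on the related lists, 14, was 31 with array weights, 11 under quantile normalization and 8 to 17 when a library was left out. Klf4, Susd5 and Kcnj8 were among the calls lost under quantile normalization (limma adjusted p 0.0649, 0.0545 and 0.0515), and Kcnj8 also with no filter (0.0536). Same-numbered libraries did not deviate together (r of -0.14, -0.07, 0.07 and 0.01), so the numbers were not taken as pairs. With the replicate block the count on the lists was 9 (Srf, Klf4, Postn, Lfng and Kcnj8 were among the calls lost and Rgs1 was gained), and the count of members stayed at 0 by either threshold. The 5 members correlated with Acta2 became 0 under quantile normalization and 0 to 6 when a library was left out (0 if replicate 3 of either group was dropped, 1 if NC replicate 1 was and 2 if 0 h p.r. replicate 4 was). The cause was not tested. The members had at least 266 reads in every library, and NC replicate 2, which moved several of these values, was the shallowest.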

Other observations

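The genes closest in pattern to the contractile members were sought over all 13863 tested genes, by Pearson's r across the 8 libraries to the mean standardised level of Acta2, Tagln, Myh11, Cnn1, Myl9 and Lmod1. Outside the members, the 8 highest were Pdxdc1, Dpagt1, Rnf114, Dnajc10, Amigo2, Tap1, Slfn2 and Eif2ak2, with r of 0.92 to 0.96. Tap1 (a peptide transporter of antigen presentation), Eif2ak2 (a kinase activated by double-stranded RNA) and Slfn2 are known interferon-responsive genes, and Dpagt1 and Dnajc10 act in the endoplasmic reticulum. Slfn2 was at 43.0, 53.3, 30.8 and 44.4 FPKM at rest and 50.8, 49.5, 81.6 and 49.8 in 0 h p.r., lowest in NC replicate 3 and highest in 0 h p.r. replicate 3, as Acta2 was. None of the 8 passed between the groups (limma adjusted p of 0.283 or more). With 8 libraries and this many genes, high r values arise readily, and these are a description.

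At the other end, Actc1 had an r of -0.97 to the same profile, the 4th lowest of the 13863 genes. It was highest, at 34.5 FPKM, in NC replicate 3, where all 7 contractile members were lowest, and near 1 FPKM in NC replicate 2 and 0 h p.r. replicate 3, where most of them were highest. Tnni3, also a striated muscle gene, had the lowest r of all genes, followed by Rnf168 and Ncam1. Of striated muscle genes named above, Csrp3 had an r of -0.87 and Smpx one of -0.65, while that of Acta1 was -0.09. These genes were picked, and the other genes of the muscle lists are not given. With 8 libraries and this many genes, low r values arise readily as well.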
